A study of Homo sapiens with 3 samples.

Results

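The genes described here encode the machinery of mitosis: 44 named genes for mitotic kinases and cyclins, the spindle checkpoint, the kinetochore, spindle motors and microtubule-associated proteins, and cytokinesis. They were chosen by name, and all 44 were found among the 26108 genes of the deposited table. LX-2, an established line of human hepatic stellate cells, was grown with fetal bovine serum and treated with vehicle or with recombinant human FGF19 (rhFGF19) at 50 or 100 ng/mL, and mRNA was sequenced from 1 library per condition. The study used these libraries to ask how FGF19 changes stellate cells that can become cancer-associated fibroblasts. The labels disagree on the time of treatment (24, 72 or 73 h), and the sample descriptions exchange the rhFGF19 doses, so the doses here follow the titles and the agent field. The libraries come from a single cell line with 1 culture per condition, and what the vehicle consisted of is not given. With 1 library per group no test was possible, so the differences have no replicate check and describe these libraries.

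Mitosis begins when cyclin B bound to CDK1 becomes active, helped by the CDC25 phosphatases, Polo-like kinase PLK1 and Aurora kinase A. Kinetochores built on CENPA chromatin attach chromosomes to spindle microtubules, and the checkpoint proteins MAD2L1, BUB1B and BUB3 hold back CDC20, the activator of the anaphase-promoting complex, until every chromosome is attached. Most of these genes are transcribed in G2 and M phase under the DREAM complex, MYBL2 and FOXM1, often through a short promoter element called the cell cycle genes homology region (CHR). FGF19 is an endocrine fibroblast growth factor that acts through FGFR4 and its co-receptor, and the growth of stellate cells is part of liver fibrosis.

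After rhFGF19, 35 of the 44 genes lay more than 2-fold above vehicle at 50 ng/mL, where 39.5% of all 12422 genes tested were higher by that much. At 100 ng/mL the count was again 35, against 38.6% of all genes tested. The 35 genes were the same at both doses, against 36.3% of all genes for being higher in both, and both comparisons share the single vehicle library. No member was more than 2-fold lower at either dose, where 1.75% and 1.47% of all genes were. The 9 genes that stayed within 2-fold were PLK1, FOXM1, CENPA, KIF2C, CDC20, UBE2C, PTTG1, AURKB and BIRC5. The spindle checkpoint group, the spindle and microtubule group and the chromosome structure group of TOP2A and MKI67 had no gene among these 9. All fold changes are differences of log2(FPKM + 0.1), which understates the change of low genes, and FPKM counts the fragments of a gene relative to the length of its transcript and to the total of its library. Their median over the 44 genes was 1.53 at the lower and 1.45 at the higher dose, against 0.62 over all genes tested at each dose.

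The fold changes varied with the GC content of the transcripts, among these genes as among all genes. GC content was the median over the transcripts listed for a gene. Of the 16 members under 40% GC all 16 were past 2-fold at 50 ng/mL, as were 90.6% of all genes tested in that range. From 40 to 45% GC it was 9 of 9 members and 83.0% of all genes, and from 45 to 50% it was 10 of 12 members and 57.5% of all genes. At 50% GC or more it was 0 of 7 members and 9.92% of all genes. Across the 44 members the Spearman correlation of the log2 fold change with GC content was -0.65 at the lower and -0.61 at the higher dose, given as a description of genes that share the same libraries. The corresponding values over the 12374 genes tested that had a GC content were -0.77 and -0.78. Between the rhFGF19 libraries the correlation was 0.27 over the members and 0.068 over all genes. When the loess trend of the fold change on GC content over all genes was removed, no member was more than 2-fold higher at either dose, where 3.74% and 3.31% of all genes were, and 1 member, PTTG1, was more than 2-fold lower at both, where 5.03% and 4.49% of all genes were. The median over the members was then 0.23 at the lower and 0.21 at the higher dose. There is 1 vehicle library, so the preparation of that library and the absence of rhFGF19 cannot be told apart.

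**Figure D1:**
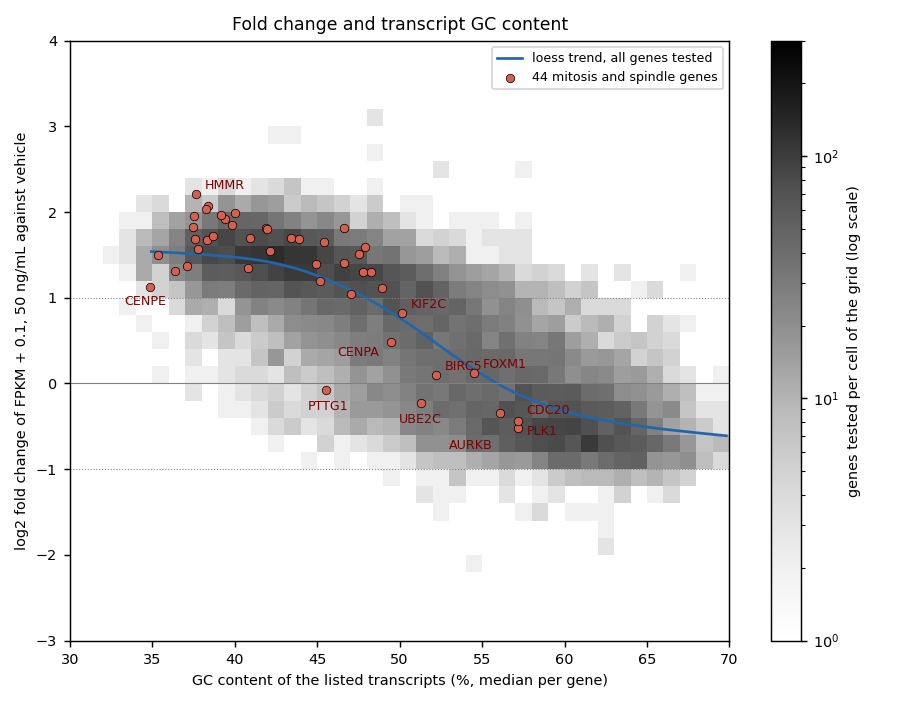
The log2 fold change at 50 ng/mL against vehicle (vertical axis) is plotted against the GC content of each gene's listed transcripts in percent (horizontal axis), with all genes tested as a grey grid whose shade counts genes on a log scale, their loess trend as a line and the 44 mitosis and spindle genes as points. The members span GC contents from CENPE at 34.8% to PLK1 at 57.2%. Of them 29 lie above the trend and 15 below it, and PTTG1 at 45.5% GC lies farthest from it at -1.30.

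GC content also differed between the coding sequences of the members with the highest and the lowest fold changes. Shown are the first 120 coding bases, from the start codon, of the 2 members with the highest mean fold change, HMMR and DLGAP5, and the 2 with the lowest, PLK1 and CDC20, from GENCODE v29 transcripts, with every G and C in capitals.
HMMR: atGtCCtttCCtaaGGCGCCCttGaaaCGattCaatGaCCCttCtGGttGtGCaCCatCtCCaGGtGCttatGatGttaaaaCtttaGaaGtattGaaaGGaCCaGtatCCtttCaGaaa
DLGAP5: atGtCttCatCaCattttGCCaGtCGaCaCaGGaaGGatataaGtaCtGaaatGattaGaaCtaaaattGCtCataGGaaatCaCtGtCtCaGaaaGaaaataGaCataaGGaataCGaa
PLK1: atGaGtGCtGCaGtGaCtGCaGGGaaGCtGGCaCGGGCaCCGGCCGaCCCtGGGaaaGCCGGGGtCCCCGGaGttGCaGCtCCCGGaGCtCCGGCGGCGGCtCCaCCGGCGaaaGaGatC
CDC20: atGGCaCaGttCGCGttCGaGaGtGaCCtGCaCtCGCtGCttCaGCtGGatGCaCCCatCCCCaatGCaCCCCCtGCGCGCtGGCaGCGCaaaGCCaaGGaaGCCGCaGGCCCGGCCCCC
In these stretches 50 of 120 bases were G or C in HMMR and 41 in DLGAP5, against 84 in PLK1 and 80 in CDC20. Over the whole coding sequence the GC content was 36.7% for HMMR (2175 bases), 38.1% for DLGAP5 (2538 bases), 57.4% for PLK1 (1809 bases) and 57.5% for CDC20 (1497 bases). At the third base of codons, where most changes leave the protein as it is, these genes had 32.3%, 27.2%, 73.3% and 62.1% G or C. Across the 44 members the log2 fold change at 50 ng/mL had a Spearman correlation of -0.68 with coding GC content and -0.70 with that of the third base, as a description. Over the 10782 genes tested that had a coding GC content, the correlation with it was -0.75. PTTG1 lay apart from this relation, with 47.2% coding GC, 43.1% at the third base and a log2 fold change of -0.08 at 50 ng/mL.

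CHR letters were present before the start of all 4 of these genes. Among RefSeq promoter windows of GRCh38.p14, which reach from 250 bases before to 50 bases after the annotated start, 36 of 44 had an entry and AURKA, BIRC5, BUB3, FOXM1, RACGAP1, TPX2, TTK and UBE2C had none. Where a gene had several windows the first listed was used. The CHR, searched as TTTGAA or TTCGAA on both strands, was present in 27 of the 36 windows (75.0%), against 10.5% of the windows of 9028 genes tested and 16.6% of those of all 27305 symbols with a window. The CCAAT box, searched as CCAAT on both strands, was in 75.0% of the members' windows and 37.1% of those of genes tested, and both motifs were in 61.1% and 4.66%. The CHR was found in 24 of the 30 members with a window that were past 2-fold at both doses and in 3 of the 6 that were not, namely CENPA, CDC20 and PLK1. Below are the 250 bases before the start, with CHR and CCAAT letters on either strand in capitals, for HMMR at chr5:163460382-163460631 on the plus strand, DLGAP5 at chr14:55191586-55191835 on the minus strand, PLK1 at chr16:23678639-23678888 on the plus strand and CDC20 at chr1:43358731-43358980 on the plus strand.
HMMR: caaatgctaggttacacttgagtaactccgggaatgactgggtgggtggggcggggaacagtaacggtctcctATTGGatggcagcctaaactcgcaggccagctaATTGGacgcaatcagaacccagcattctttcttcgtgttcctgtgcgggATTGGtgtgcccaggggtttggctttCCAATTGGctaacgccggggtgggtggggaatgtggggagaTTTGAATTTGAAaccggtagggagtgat
DLGAP5: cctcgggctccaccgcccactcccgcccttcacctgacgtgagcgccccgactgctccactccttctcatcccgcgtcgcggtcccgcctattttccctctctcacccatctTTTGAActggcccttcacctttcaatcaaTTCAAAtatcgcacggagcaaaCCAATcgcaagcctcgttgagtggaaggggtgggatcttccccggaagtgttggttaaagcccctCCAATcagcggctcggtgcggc
PLK1: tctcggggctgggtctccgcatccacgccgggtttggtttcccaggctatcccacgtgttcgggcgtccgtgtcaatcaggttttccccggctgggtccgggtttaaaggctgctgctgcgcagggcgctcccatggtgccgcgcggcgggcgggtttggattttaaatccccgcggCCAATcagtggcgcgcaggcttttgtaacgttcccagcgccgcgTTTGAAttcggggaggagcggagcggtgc
CDC20: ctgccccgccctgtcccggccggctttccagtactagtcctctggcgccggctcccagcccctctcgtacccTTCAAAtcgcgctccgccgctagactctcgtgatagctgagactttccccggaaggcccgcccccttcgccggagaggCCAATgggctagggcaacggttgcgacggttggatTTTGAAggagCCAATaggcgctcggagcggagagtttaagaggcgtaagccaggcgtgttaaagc
In HMMR a CHR begins 28 bases and another 22 bases before the start, downstream of CCAAT letters on both strands, and CCAAT and its complement overlap once. In PLK1 the CHR begins 29 bases and the CCAAT box 73 bases before the start, and in CDC20 a CHR begins 65 bases and a CCAAT box 55 bases before it. These upstream stretches were 53.6% GC in HMMR, 59.6% in DLGAP5, 64.8% in PLK1 and 63.2% in CDC20. The start is that of RefSeq, and the HMMR and PLK1 stretches lie inside the genes as listed, which begin at 163460203 and 23677656. Those of DLGAP5 and CDC20 lie next to the listed gene. A match of letters is a description and not a binding site.

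The libraries differed over the whole table as well. The FPKM values summed to 302243 in vehicle, 276690 at the lower and 281606 at the higher dose, with 8890, 10925 and 10894 genes at 1 FPKM or more, and the depth of the libraries is unknown because FPKM values hold no counts. Of 12 stellate or fibroblast markers 9 were at 1 FPKM or more in every library, while LRAT was listed at 0 in all 3, DES was at 0 or 0.08 FPKM and COL1A2 was between 0.03 and 0.14 FPKM. The summed level of these markers was 1132, 1175 and 1184 FPKM in vehicle, 50 and 100 ng/mL, over genes that differed in direction. VIM was at 439, 654 and 649 FPKM and SPARC at 40.3, 72.4 and 73.8, whereas TAGLN was at 223, 118 and 126 and TIMP1 at 308, 184 and 193. The 4 of 5 epithelial markers listed summed to between 5.30 and 8.16 FPKM. Most of this was KRT7, which ranged from 4.28 FPKM with the higher dose to 6.97 with vehicle, whereas CDH1 stayed at or below 0.01. The 2 of 5 blood cell markers listed summed to between 2.57 and 4.44 FPKM, most of it CD14. Hepatocyte markers summed to between 11.3 and 12.5 FPKM, most of it SERPINA1. The part of these epithelial, blood cell and hepatocyte markers in the results was not tested. Summed over the 44 mitosis genes the level was 893 FPKM in vehicle, 1213 at the lower and 1230 at the higher dose, or 0.295%, 0.439% and 0.437% of each library's total FPKM. Of these sums CCNB1 alone held 58.9, 155 and 152 FPKM. In bulk RNA a larger share of mitotic cells, more of these transcripts per cell and a table-wide library difference cannot be told apart.

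**Figure D2:**
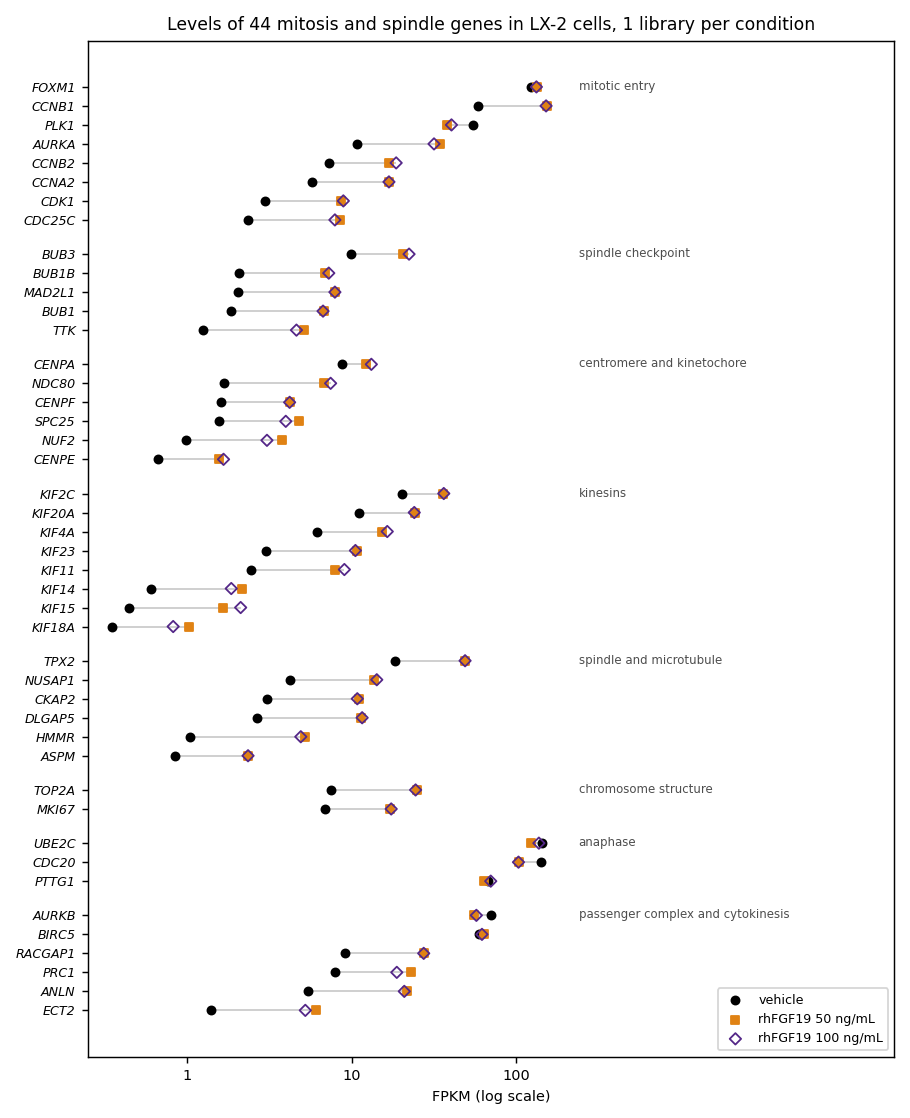
FPKM of the 44 genes (horizontal axis, log scale) in the vehicle library (black circles), at 50 ng/mL (orange squares) and at 100 ng/mL rhFGF19 (open diamonds), grouped by role. Both rhFGF19 libraries lie above vehicle for 39 genes and below it for 4, PLK1, CDC20, UBE2C and AURKB. Counted for each dose by itself, 39 of the 44 were above vehicle with the lower dose and 40 with the higher. Most genes of the table were also above vehicle, 8143 of all 12422 tested with the lower dose and 8169 with the higher. Of the 8 genes at 50 FPKM or more in vehicle CCNB1 alone is past 2-fold.

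The counts for each role that follow stand beside 36.3% of all genes tested that were past 2-fold at both doses, and beside the larger shares at low GC content given above. Of the 8 genes of mitotic entry, 6 were more than 2-fold higher at both doses. CCNB1, the B-type cyclin whose binding activates CDK1, was at 58.9 FPKM in vehicle, 155 at the lower and 152 at the higher dose, with log2 fold changes of 1.39 and 1.37. It was the only member of at least 50 FPKM in vehicle, out of 8, that was past 2-fold, and its rank among the members by level went from 7 in vehicle to 1 in both rhFGF19 libraries. CDK1, the kinase that drives entry into mitosis, was at 2.98, 8.58 and 8.89 FPKM, so that CCNB1 exceeded its partner by 19.7, 18.0 and 17.1 times in vehicle, 50 and 100 ng/mL. The kinase and both cyclins B were thus higher together in both rhFGF19 libraries, with similar proportions. CCNB2, the second B-type cyclin, was at 7.28, 16.7 and 18.6 FPKM, with log2 fold changes of 1.19 and 1.34. CCNA2, the cyclin of S and G2 phase, was at 5.72, 16.9 and 16.8 FPKM (1.55 and 1.54). CDC25C, the phosphatase that removes inhibitory phosphates from CDK1, was at 2.33, 8.44 and 7.90 FPKM and had the largest log2 fold changes of this group, 1.81 and 1.72. It was also 0.69 and 0.61 above the trend of genes of its GC content. By that measure CDK1 was at -0.04 and 0.01, CCNB1 at 0.13 at each dose and CCNB2 at -0.06 and 0.12.

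The kinases PLK1 and AURKA lay on different sides of vehicle. AURKA, the Aurora kinase of the spindle poles, was at 10.8 FPKM in vehicle, 34.4 at the lower and 31.7 at the higher dose, with log2 fold changes of 1.66 and 1.54. PLK1 was at 54.6, 38.1 and 40.4 FPKM, with log2 fold changes of -0.52 and -0.43 whose mean was the lowest of the members. The ratio of PLK1 to AURKA on the FPKM scale was 5.04 in vehicle, 1.11 at the lower and 1.28 at the higher dose. AURKA has a transcript GC content of 45.4% and PLK1 of 57.2%. FOXM1, a transcription factor of G2 and M phase genes, was at 123, 133 and 133 FPKM with log2 fold changes of 0.12 and 0.11. Its direction turned to below vehicle when the median ratio over genes of at least 1 FPKM was set to 0 and when the trend on GC content or length was removed.

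All 5 spindle checkpoint genes were more than 2-fold higher at both doses. Their median GC content was 41.9%, and of all genes tested between 40 and 45% GC 83.0% and 81.6% were past 2-fold at the lower and higher dose. MAD2L1, which binds CDC20 at unattached kinetochores, was at 2.02 FPKM in vehicle, 7.92 at the lower and 7.90 at the higher dose, with 1.92 on the log2 scale at each dose. TTK, the kinase that starts checkpoint signalling, was at 1.25, 5.13 and 4.61 FPKM (1.95 and 1.80). The checkpoint kinase BUB1 was at 1.85, 6.75 and 6.69 FPKM (1.81 and 1.80), and BUB1B, which encodes the checkpoint protein BubR1, was at 2.05, 6.90 and 7.25 FPKM (1.70 and 1.77). These 4 genes kept close to one another in level in every library. BUB3, the WD-repeat partner of both, was more abundant at 9.93, 20.6 and 22.3 FPKM and had smaller log2 fold changes of 1.04 and 1.16. The median GC-adjusted fold change of the 5 genes was 0.39 at each dose.

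The target of the checkpoint was not higher. CDC20 was at 142 FPKM in vehicle, 104 at the lower and 103 at the higher dose, with log2 fold changes of -0.44 and -0.45. Its ratio to MAD2L1 on the FPKM scale was 70.1 in vehicle, 13.2 at the lower and 13.1 at the higher dose, and that to BUB1B was 69.1, 15.1 and 14.3. Relative to genes of the same GC content CDC20 was at -0.32 and -0.34. Its transcripts had 57.2% GC, against 39.4% for those of MAD2L1 and 43.4% for those of BUB1B. The fitted log2 fold change at 50 ng/mL for genes of these GC contents was -0.12, 1.49 and 1.36.

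The anaphase group, CDC20, UBE2C and PTTG1, was the only group of members with no gene past 2-fold at either dose. UBE2C, the ubiquitin-conjugating enzyme of the anaphase-promoting complex, was at 144 FPKM in vehicle, 123 at the lower and 138 at the higher dose. Its level at 100 ng/mL lay nearer to vehicle than to 50 ng/mL, and its log2 fold changes were -0.22 and -0.06. Quantile normalization turned its mean from -0.14 to 0.11. Relative to genes of its GC content of 51.3% it was at -0.82 and -0.64.

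PTTG1 lay farther from the GC trend than any other member. It encodes securin, the inhibitor of separase that is destroyed at the onset of anaphase. Its level was 67.3 FPKM in vehicle, 63.6 at the lower and 70.1 at the higher dose, with the rhFGF19 libraries on either side of vehicle and log2 fold changes of -0.08 and 0.06. Its transcripts had 45.5% GC, and genes of that GC content had a fitted log2 fold change of 1.22 at the lower and 1.20 at the higher dose. PTTG1 was at -1.30 and -1.14 relative to the trend, the largest distance of the 44 members, while 5.03% and 4.49% of all genes tested were more than 2-fold below the trend as well. The other members between 45 and 46% GC, CCNB2 and AURKA, were at 1.19 and 1.66 at 50 ng/mL. When the trend was fitted on coding GC content, an alternative chosen after seeing the data, PTTG1 was at a mean of -1.25 over both doses. PTTG1 has near-identical copies elsewhere in the genome, and reads could have been split among them, although PTTG2 and PTTG3P were listed at no more than 0.13 FPKM in any library. Listed copies of AURKA, CCNB2, CDC20, KIF4A, RACGAP1 and UBE2C were at 0.43 FPKM or less, and how reads were shared with them is uncertain.

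**Figure D3:**
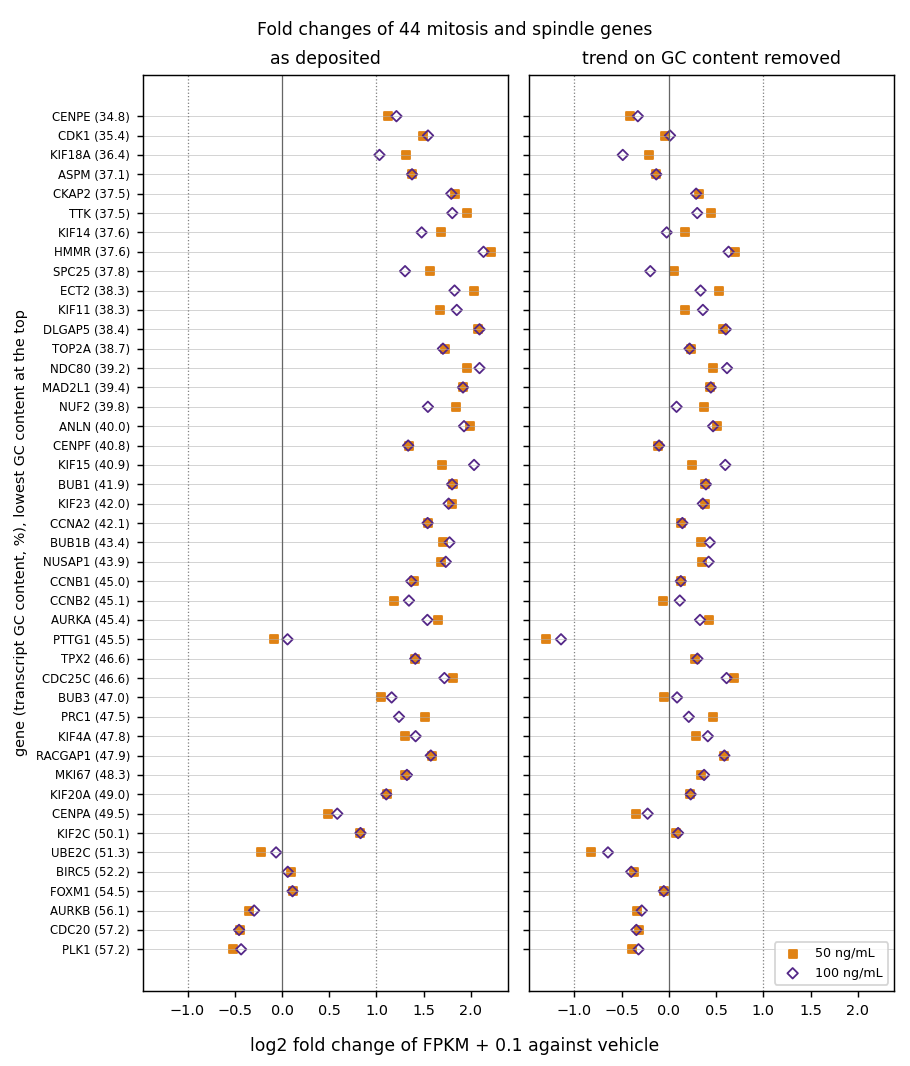
Log2 fold changes of FPKM + 0.1 against vehicle (horizontal axis) at 50 ng/mL (squares) and 100 ng/mL (diamonds) for the 44 genes, ordered by the GC content of their transcripts with the lowest at the top, from the deposited values (left) and after the loess trend on GC content was removed (right). Dotted lines mark 2-fold, which 35 genes exceed on the left and PTTG1 exceeds downward on the right.

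Of the 6 genes of the centromere and kinetochore, 5 were past 2-fold at both doses. NDC80, a subunit of the complex that holds microtubules at the kinetochore, was at 1.67 FPKM in vehicle, 6.79 at the lower and 7.44 at the higher dose, with log2 fold changes of 1.96 and 2.09. Of its partners in that complex, the members NUF2 and SPC25 were lower in level, NUF2 at 0.98, 3.78 and 3.05 FPKM and SPC25 at 1.55, 4.79 and 3.97 FPKM. The ratio of NDC80 to NUF2 was 1.70, 1.80 and 2.44 on the FPKM scale. NUF2 and SPC25 were among the members that differed most between the rhFGF19 libraries, by -0.30 and -0.26 at 100 against 50 ng/mL, while NDC80 differed by 0.13. CENPF, a large protein of the outer kinetochore, was at 1.60, 4.22 and 4.19 FPKM (1.35 and 1.34), and the kinesin CENPE was at 0.66, 1.56 and 1.66 FPKM (1.13 and 1.21). Both have low GC content, 40.8% and 34.8%, and lay below the trend, CENPF at -0.11 and -0.10 and CENPE at -0.41 and -0.33. CENPA, the histone H3 variant that marks the centromere, was at 8.74, 12.3 and 13.2 FPKM, higher than vehicle in both libraries but within 2-fold at 0.48 and 0.58. Its coding sequence had 60.5% GC and its listed transcripts 49.5%, so its adjusted value depended on which was used, -0.28 with transcripts and 0.74 with coding sequence as the mean of both doses. CENPA also overlaps another listed gene, SLC35F6, on its strand.

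Among the 8 kinesins grouped by themselves, 7 were past 2-fold at both doses. KIF11, the motor that pushes spindle poles apart and is known as Eg5, was at 2.43 FPKM in vehicle, 7.95 at the lower and 9.02 at the higher dose (1.67 and 1.85). KIF15, which supports KIF11 in keeping the spindle bipolar, was at 0.44, 1.65 and 2.11 FPKM. Its log2 fold changes were 1.70 and 2.03, and its difference of 0.34 between the rhFGF19 libraries was the largest of the 44 genes. KIF18A, a motor that limits chromosome oscillation, was the lowest member in every library at 0.35, 1.02 and 0.82 FPKM (1.32 and 1.03), and relative to the trend at its GC content of 36.4% it was at -0.21 and -0.49. KIF15 and KIF18A were under the filter level of 0.5 FPKM in vehicle and passed through the rhFGF19 libraries, so their inclusion is not independent of their difference. KIF14, a motor of cytokinesis, was at 0.60, 2.15 and 1.85 FPKM (1.68 and 1.48), and KIF4A, a chromosome-bound motor of the central spindle, was at 6.11, 15.3 and 16.5 FPKM (1.31 and 1.41). KIF20A, which works in cytokinesis, was at 11.1, 24.1 and 24.0 FPKM (1.11 and 1.10). KIF2C, which depolymerizes microtubules at the centromere, was the most abundant kinesin at 20.4, 36.1 and 36.3 FPKM and stayed within 2-fold (0.82 and 0.83). Within this group the kinesins at the highest levels had the highest GC content, KIF2C with 50.1% and KIF20A with 49.0%, and the smallest fold changes apart from KIF18A at 100 ng/mL.

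The spindle and microtubule group held 6 genes, all past 2-fold at both doses. HMMR, the hyaluronan-mediated motility receptor that also binds spindle microtubules (ENSG00000072571, chromosome 5 from 163460203 to 163491941), was at 1.04 FPKM in vehicle, 5.18 at the lower and 4.90 at the higher dose. It had the highest log2 fold changes of the 44 genes, 2.21 and 2.13, and it overlaps the antisense gene HMMR-AS1. DLGAP5, a partner of Aurora A on spindle fibres (ENSG00000126787, chromosome 14 from 55148112 to 55191585), was at 2.64, 11.5 and 11.6 FPKM (2.08 and 2.09). These were also 2 of the members farthest above the trend on GC content, HMMR by 0.70 and 0.63 and DLGAP5 by 0.58 and 0.60. TPX2, the activator of Aurora A, was at 18.3, 48.7 and 48.9 FPKM (1.41 at each dose), and its ratio to AURKA was 1.69, 1.42 and 1.54. NUSAP1, which bundles spindle microtubules, was at 4.20, 13.8 and 14.2 FPKM (1.69 and 1.73), and CKAP2 was at 3.05, 11.1 and 10.8 FPKM (1.83 and 1.79). ASPM, a spindle pole protein with the longest coding sequence of the members (10431 bases), was at 0.84 FPKM in vehicle and at 2.34 in both rhFGF19 libraries (1.38 at each dose). Relative to the trend it was at -0.14 and -0.13. The proliferation markers TOP2A, the topoisomerase that untangles chromosomes, and MKI67, the Ki-67 antigen, were also past 2-fold. TOP2A was at 7.44, 24.9 and 24.5 FPKM (1.73 and 1.70) and MKI67 at 6.89, 17.2 and 17.4 FPKM (1.30 and 1.32).

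Of the 6 genes of the chromosomal passenger complex and cytokinesis, 4 were past 2-fold at both doses, and the passenger subunits were not among them. AURKB, the kinase of that complex, was at 70.3 FPKM in vehicle, 55.2 at the lower and 57.3 at the higher dose (-0.35 and -0.30). BIRC5, which encodes its subunit survivin, was at 59.4, 63.7 and 62.0 FPKM (0.10 and 0.06), a direction that turned below vehicle when the median ratio was set to 0 or when a trend was removed. The ratio of AURKB to BIRC5 was 1.18, 0.87 and 0.92 on the FPKM scale. AURKB has 56.1% GC and was at -0.33 and -0.29 relative to the trend, and BIRC5 has 52.2% and was at -0.37 and -0.40. The 4 cytokinesis genes were all past 2-fold, with between 38.3% and 47.9% GC and values between 0.21 and 0.59 relative to the trend. ANLN, the scaffold of the contractile ring, was at 5.42, 21.8 and 20.9 FPKM (1.98 and 1.93). ECT2, the exchange factor that activates RhoA at the cleavage site, was at 1.40, 6.03 and 5.22 FPKM (2.03 and 1.83). RACGAP1, which forms centralspindlin with the kinesin KIF23, was at 9.13, 27.6 and 27.4 FPKM (1.59 and 1.58), and KIF23, counted among the kinesins above, was at 3.03, 10.8 and 10.5 FPKM (1.80 and 1.76). Their ratio was 3.01, 2.55 and 2.60, with both subunits higher after rhFGF19. PRC1, which cross-links antiparallel microtubules, was at 7.91, 22.8 and 18.8 FPKM (1.51 and 1.24), and it overlaps other listed genes on both strands.

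The rhFGF19 doses differed little in these genes. At 100 against 50 ng/mL no member was more than 2-fold higher or lower, where 0.845% and 0.797% of all genes tested were. At the higher dose 19 genes were higher and 24 lower, with a median log2 difference of -0.01, and ASPM had the same value in both. The absolute difference had a median of 0.065 over the members and 0.089 over all genes tested. The largest were 0.34 for KIF15, -0.30 for NUF2, -0.28 for KIF18A and -0.28 for PRC1, of which the first 3 were at or below 3.78 FPKM in all libraries. These differences have no replicate check.

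Levels and GC content went together among these genes. In vehicle the members ranged from 0.35 FPKM for KIF18A to 144 for UBE2C, with a median of 4.81, and at 50 ng/mL from 1.02 for KIF18A to 155 for CCNB1, with a median of 13.0. The highest member exceeded the lowest by 411 times in vehicle and by 152 and 185 times in the rhFGF19 libraries. The 7 members with 50% GC or more were between 20.4 and 144 FPKM in vehicle, and the 16 under 40% GC were between 0.35 and 7.44 FPKM. Over all genes tested the median vehicle level also rose with GC content, from 0.71 FPKM under 40% to 7.4 FPKM at 50% or more. The Spearman correlation of level with GC content across the 44 members was 0.83 in vehicle and 0.79 at 50 ng/mL, as a description. That of the log2 fold change at 50 ng/mL with the vehicle level was -0.65 over the members and -0.60 over all genes tested, where the vehicle value enters both measures. With transcript length the fold change had a correlation of 0.20 over the members and 0.18 over all genes. In the order of vehicle levels UBE2C, CDC20, FOXM1, AURKB, PTTG1, BIRC5, CCNB1 and PLK1 came first, and neighbours in it cannot be separated without replicates.

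Other genes of mitosis and the cell cycle, on lists that hold none of the 44, were past 2-fold in smaller proportion. Of 138 such genes 134 passed the filter, and 82 were more than 2-fold higher at the lower and 81 at the higher dose, or 61.2% and 60.4%, with 0 lower and a median log2 fold change of 1.24 at each dose, against 39.5% and 38.6% of all genes. Of the 134, 11 were under 0.5 FPKM in vehicle and passed the filter through the rhFGF19 libraries, and 10 of these are among the genes counted as higher at each dose. Once the GC trend was removed these medians were 0.12 and 0.10. For the DNA replication genes 23 of 38 were higher at the lower and 20 at the higher dose, with medians of 1.20 and 1.06 and, after removal of the trend, 0.15 and 0.14. The mitosis genes had a lower median GC content of 42.8%, against 49.6% for the replication genes and 51.2% for all genes tested. No test of these differences was possible.

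**Figure D4:**
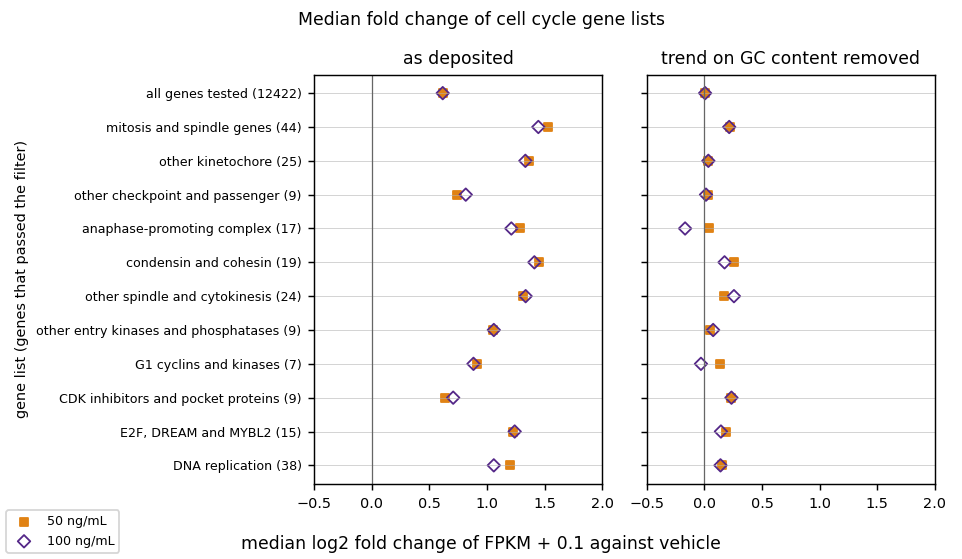
Median log2 fold change of FPKM + 0.1 against vehicle (horizontal axis) at 50 ng/mL (squares) and 100 ng/mL (diamonds) for the mitosis and spindle genes, other cell cycle lists and all genes tested, from the deposited values (left) and after removal of the trend on GC content (right). The mitosis genes have the highest medians on the left, 1.53 and 1.45, and on the right the lists lie between -0.17 and 0.26. On the right the mitosis genes are at 0.225 and 0.215, below the CDK inhibitors and pocket proteins at 0.228 and 0.234. Condensin and cohesin genes are above them at 50 ng/mL (0.257), and other spindle and cytokinesis genes at 100 ng/mL (0.256).

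The counts that follow stand beside 39.5% and 38.6% of all genes tested at the lower and higher dose. CENPU, KNTC1, NSL1, ANAPC4, ANAPC10 and STIL, counted as higher in their lists, were under 0.5 FPKM in vehicle. They passed the filter through the rhFGF19 libraries. Of 25 other kinetochore genes that passed the filter, 18 (72.0%) were higher at the lower and 17 (68.0%) at the higher dose. They ran from MIS12 with a mean of 2.04 over both doses to SPC24 with -0.72. SPC24 binds SPC25 in the NDC80 complex, and at 24.0 FPKM in vehicle, 14.1 at the lower and 15.0 at the higher dose it was below vehicle where its partner was above. Its transcripts had 58.6% GC and those of SPC25 37.8%. In the anaphase-promoting complex and its regulators 9 of 17 (52.9%) were higher at the lower and 10 (58.8%) at the higher dose. The subunit CDC27 was highest at 1.86 and the ubiquitin-conjugating enzyme UBE2S lowest at -0.81. UBE2S, which works after UBE2C on the same complex, was at 278, 158 and 159 FPKM. Of the condensin and cohesin genes 14 of 19 (73.7%) were higher at each dose. They ran from the cohesin subunit STAG2, at 2.03 and 1.97 for the lower and higher dose, to NCAPH2 with a mean of -0.73. Of other spindle and cytokinesis genes 15 of 24 (62.5%) were higher at each dose, from the kinase NEK2 at 2.22 to KIF22 at -0.65. Other checkpoint and passenger genes had 4 of 9 (44.4%) higher at each dose, from BORA at 1.72 to MAD1L1 at -0.83. BORA, at 0.41 FPKM in vehicle, passed the filter only through the rhFGF19 libraries. Other entry kinases and phosphatases had 5 of 9 (55.6%), from WEE1 at 1.63 to PKMYT1 at -0.30, kinases that both restrain CDK1.

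The regulators of the cycle outside mitosis are to be read against 39.5% and 38.6% of all genes tested. Among the G1 cyclins and kinases 3 of 7 (42.9%) were higher at the lower dose and 2 (28.6%) at the higher, from CCNE2 with a mean of 1.46 to CDK4 with -0.76. CCNE2 was at 0.46 FPKM in vehicle and passed the filter only through the rhFGF19 libraries. Of the CDK inhibitors and pocket proteins 4 of 9, or 44.4%, were higher at each dose. RBL1, a pocket protein of the DREAM family of repressors, had the highest mean at 1.77. CDKN1A, the p21 inhibitor of cyclin-dependent kinases, had the lowest at -0.72, with 146 FPKM in vehicle, 87.3 at the lower and 89.8 at the higher dose. Of the E2F, DREAM and MYBL2 genes 10 of 15 (66.7%) were higher at each dose, from RBBP4 at 1.77 to E2F1 at -0.64. Among these 10, E2F8 and LIN9 were under 0.5 FPKM in vehicle and passed the filter only through the rhFGF19 libraries. In each list named here the gene with the highest mean had a lower transcript GC content than the gene with the lowest, for example 40.7% for RBL1 and 60.7% for CDKN1A.

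The annotation in the deposited table places 36 of the 44 members under cell cycle, 33 under cell division, 25 under spindle, 16 under kinetochore and 16 under midbody. Among the other genes annotated with kinetochore, 72 of 109 that passed the filter were higher at each dose, or 66.1%. For cell division it was 182 of 330 at each dose, or 55.2%. For midbody it was 63 of 125 at the lower dose, or 50.4%, and 62 at the higher, or 49.6%. For spindle it was 74 of 157, or 47.1%, and 70, or 44.6%, and for the KEGG cell cycle set it was 59 of 101, or 58.4%, and 57, or 56.4%. Over all genes tested the shares were 39.5% and 38.6%. Genes of these sets under 0.5 FPKM in vehicle could pass the filter only through the rhFGF19 libraries, and they were not counted. The sets also share genes, such as NEK2, with the lists above and are not separate from them. With the GC trend removed the medians of these annotated sets at 50 ng/mL were 0.03 for kinetochore, 0.08 for cell division, 0.14 for midbody, 0.03 for spindle and 0.15 for the KEGG set.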

How the data were processed

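Total RNA of LX-2 cells was poly(A)-selected and sequenced as paired-end Illumina reads, per the labels, with 1 library for vehicle, 50 and 100 ng/mL rhFGF19. Mapping by the authors used HISAT2, and the submitters' processing notes name HISAT2 2.0, StringTie 1.3.0 and Bowtie 0.12.2 with the builds hg19 and mm8 and no roles. The authors deposited FPKM values to 2 decimals, and the program that made them is not given in the sources used here. The positions in the table overlapped GRCh38 (GENCODE v29) for 44 of 44 members. FPKM values keep no counts, so no depth or interval was available.

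Rows sharing a symbol were summed, genes averaging 0.5 FPKM or more over the 3 libraries were kept, and log2(FPKM + 0.1) was compared between libraries, with an absolute difference above 1, the study's criterion, counted as past 2-fold. The members and lists were chosen with earlier results of these data known. All members could be named, and in each list the genes with the highest and lowest mean of both fold changes. Transcript GC content (medians over listed transcripts, 99.6% of genes tested) and length came from GENCODE v29, and trends were removed by loess (span 0.3). For 12 alternatives and 1 added after seeing the data the values were recomputed. The procedure was tested on simulated data. Python 3.11.15, NumPy 2.4.6, pandas 2.3.3, SciPy 1.17.1, statsmodels 0.14.6 and matplotlib 3.10.9 were used.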

Additional observations from a re-analysis of the deposited data

Results flagged for a closer look

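PTTG1 was lower than vehicle at 50 ng/mL, with a log2 fold change of -0.081, and higher at 100 ng/mL, with 0.058. The doses lay on opposite sides of vehicle, with 1 library each, and the difference was not tested. The mean of both turned to 0.10 with values rescaled to TPM and to 0.21 with quantile normalization.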

How the results depend on the processing

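With a pseudocount of 1 the median log2 fold change of the members was 1.27 at the lower and 1.27 at the higher dose, with the median ratio to vehicle set to 0 it was 1.30 and 1.23, and with values rescaled to TPM it was 1.67 and 1.60. Quantile normalization left 19 genes higher at 50 and 24 at 100 ng/mL, with medians of 0.96 and 1.01, and raising the log2 threshold to 2 left 3 and 4 higher. With the length trend removed 17 and 16 genes were higher, with medians of 0.88 and 0.88, against 14.0% and 13.5% of all genes. With the GC trend removed 0 genes were higher and 1 lower at each dose (medians 0.23 and 0.21), likewise with GC and length trends removed (0.16 and 0.19) and with the trend on coding GC content removed (0.12 and 0.10). Of all genes 3.74% and 3.31%, 3.94% and 3.48%, and 5.29% and 4.63% were higher in these 3 settings. Lower were 5.03% and 4.49%, 4.05% and 3.66%, and 4.16% and 3.66%. Called means that changed direction were -0.015 for CDK1, -0.37 for CENPE, -0.11 for CENPF, -0.069 for SPC25, -0.35 for KIF18A and -0.14 for ASPM with the GC trend removed, -0.042 for CDK1, -0.29 for CENPE, -0.047 for CENPF, -0.075 for KIF14, -0.31 for KIF18A and -0.29 for ASPM with both trends removed and -0.016 for CDK1, -0.021 for CCNB1, -0.18 for CCNB2, -0.049 for BUB3, -0.40 for CENPE, -0.17 for CENPF, -0.12 for SPC25, -0.37 for KIF18A and -0.18 for ASPM with the coding GC trend removed. These directions are relative to genes of similar GC content and follow from the centring. The median over all genes tested at 50 ng/mL was 0.62 in the deposited values, 0.77 with TPM, 0.40 with the median ratio set to 0, 0.10 after quantile normalization, 0.045 without the length trend and 0.0068 without the GC trend, and the higher genes made up 95.8%, 97.5%, 82.9%, 48.3%, 46.1% and 42.7% of all genes past 2-fold. A pseudocount of 0.01, other filters and another handling of shared symbols moved no count of members by over 1.5 times, although KIF18A fell under a filter of 1 FPKM. The coding GC trend used 86.8% of the genes tested. No paired analysis was possible because each group holds 1 library. The unknown depth limits what can be said of members near 1 FPKM.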
